A study of Homo sapiens with 6 samples.

Results

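Metallothioneins are small cysteine-rich proteins that bind zinc and copper, and cadmium when cells meet it, and so buffer the metal content of the cell. Their genes lie side by side in a cluster on chromosome 16. Zinc and cadmium induce many of them through MTF1, a zinc-sensing transcription factor that binds metal response elements in their promoters, and glucocorticoids and oxidative stress also induce several of them. The 6 metallothionein genes considered were MT1E, MT1F, MT1G, MT1M, MT1X and MT2A, taken from a table of 21494 genes by symbol. Values of 5 of the 6 were analysed, and MT1G was not analysed here. A further 3 entries of the family, MT1A and the pseudogenes MT1L and MT2P1, were read beside them.

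RNA-seq of cells labelled as the human melanoma line G361 compared 3 libraries of cells that carried a control shRNA (Control sh) with 3 libraries of cells that carried an shRNA against the coding region of VprBP, which DCAF1 encodes (VprBP sh). The comparison asks how the transcriptome of these cells differs when VprBP, a kinase for histone H2A and a subunit of a ubiquitin ligase, is depleted. The shRNA was delivered in a lentiviral vector and infected cells were selected with puromycin. Only 1 shRNA against VprBP was described and no library came from rescued cells, so its effect and that of the loss of VprBP cannot be told apart here. The study did re-express VprBP in depleted cells in other assays, among them growth and RT-qPCR of selected genes. In whole cell populations, fewer cells of a type and less RNA per cell cannot be told apart either. The label field for genotype reads WT in the libraries of both groups, the labels do not say whether the replicates were separate cultures, and the p-values below therefore measure only the spread between these libraries.

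The libraries held 18195949 to 26883948 estimated counts. DCAF1 had 688, 893 and 884 counts in Control sh against 681, 488 and 628 in VprBP sh, and its normalized level (counts scaled by the upper quartile of each library) fell by 0.58 on the log2 scale (SE 0.17, adjusted p = 0.0125, edgeR's quasi-likelihood test with Benjamini-Hochberg adjustment), which is less than 2-fold. Replicate 1 stood apart from replicates 2 and 3 in each group. Chi-square per degree of freedom between libraries was 17.6 to 29.1 for the pairs with replicate 1 and 2.36 and 2.50 for the pairs without it, so the results below are also given without the first replicates where this changes them. The labels name LD611, which is the name of a bladder cancer line, as the source beside G361 as the cell line, and the markers of both cell types were read to check this. Of 8 melanocyte-lineage markers, 4 were analysed, with a summed level of 199 to 236 normalized counts in Control sh against 244 to 308 in VprBP sh, none of the 4 being at 0 in a whole group. MLANA and TYRP1 had at most 5 counts in any library. Of 9 urothelial markers, 7 were analysed, with a summed level of 93810 to 105208 normalized counts in Control sh against 25088 to 28540 in VprBP sh, a sum carried by the keratin genes KRT5 and KRT7. KRT5 (64989 ± 7916 normalized counts in Control sh), UPK2 and UPK1B were called lower, UPK1B being at 0 in every VprBP sh library, whereas GATA3 rose from 3.07 ± 4.40 to 1529 ± 205 and PPARG from 277 ± 66.7 to 726 ± 24.3. These levels go against the melanoma label, and which cells were sequenced cannot be told from the labels. Whether the cells of both groups were the same was not tested, and a difference in cells cannot be told apart from an effect of the shRNA. The part of the marker shift in the results below was not tested.

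The promoters of MT2A and MT1X are shown because these are the only 2 members with an entry among the promoters used here. They are also the 2 members with the highest levels. Each line gives the 250 bases before the start site, from RefSeq on GRCh38.p14, read 5′ to 3′ on the plus strand. Capitals mark each match to the core of the metal response element, searched on both strands as TGCACNC or TGCGCNC. The first covers chr16:56608334-56608583 and the second chr16:56682220-56682469.
MT2A: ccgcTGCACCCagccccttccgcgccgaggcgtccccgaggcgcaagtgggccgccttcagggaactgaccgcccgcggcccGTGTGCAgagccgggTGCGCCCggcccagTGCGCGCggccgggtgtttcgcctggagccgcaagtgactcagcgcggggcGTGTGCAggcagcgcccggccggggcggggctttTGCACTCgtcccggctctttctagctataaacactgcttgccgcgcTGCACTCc
MT1X: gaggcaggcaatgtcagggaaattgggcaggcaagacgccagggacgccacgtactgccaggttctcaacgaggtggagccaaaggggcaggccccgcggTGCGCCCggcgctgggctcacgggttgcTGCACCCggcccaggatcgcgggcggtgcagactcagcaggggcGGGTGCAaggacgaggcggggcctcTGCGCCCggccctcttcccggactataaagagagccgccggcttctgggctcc

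In the 300 bases from 250 before to 50 after the start, MT2A held 8 matches, 7 of them in the stretch above and 1 that begins 31 bases after the start. MT1X held 4 matches, all of them upstream. Among 35116 RefSeq promoter windows of the same length, 29.6% held at least 1 match, 0.601% held at least 4 and 0.0199% held at least 8. The windows of MT1H, MT1B and MT4, metallothionein genes whose levels were not analysed here, held 8, 3 and 3 matches. The matches nearest the start in the MT1X stretch began 53 and 78 bases before it, and those of MT2A began 8 and 54 bases before it. Both promoters held TATAAA, at 29 bases before the start in MT2A and 30 in MT1X, a motif found in 11.5% of all windows. Both held 2 matches to GGGCGG, the GC box that Sp1 binds, found in 45.0% of windows, and 1 match to TGACNNNGC, the core of the antioxidant response element, found in 13.3%. The promoter window of MTF1 held 0 matches to the metal response element core. A match is a run of letters and not a measured site of binding. Of the members, MT1E, MT1F, MT1G and MT1M had no entry among the promoters used here.

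The cluster did not move as a block. MT1E, MT1M, MT1A and MT1L, which lie next to each other, were read in every Control sh library and had 0 counts in every VprBP sh library, whereas MT2A before them and MT1F and MT1X behind them kept between 157 and 7953 counts per library there. MT1X rose 2.08-fold in VprBP sh. MT2A, the most abundant member, was lower in mean and MT1F was higher, but neither difference passed the test. A gene was called when its adjusted p was under 0.05 and its fold change over 2. By this rule 24.5% of the 16756 genes tested were called higher in VprBP sh and 22% were called lower, so a large share of the transcriptome differed between the groups. Of the 4 members tested, MT1X was called higher and MT1E lower. MT1M did not pass the filter on low counts.

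**Figure D1:**
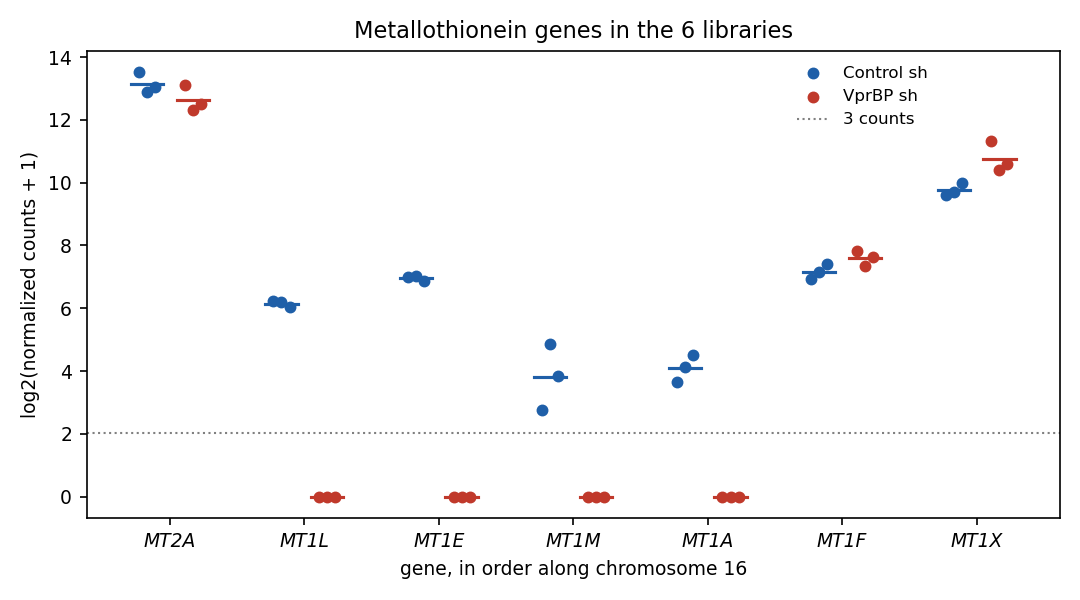
Level of 7 metallothionein genes and pseudogenes as log2(normalized counts + 1), in their order along chromosome 16, with 1 point per library, 3 Control sh in blue and 3 VprBP sh in red. Horizontal bars are means of the plotted values, the dotted line is the mean level of 3 counts, and libraries with 0 counts lie at 0. MT1E, MT1M, MT1A and MT1L sat at 0 in all 3 VprBP sh libraries, whereas MT1X lay between 1348 and 2558 normalized counts there, above its 774 to 1011 in Control sh.

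MT2A (ENSG00000125148.7, chr16:56608584-56609497, plus strand) encodes the main metallothionein of many human cell types. It had 10175, 6953 and 8943 counts in Control sh replicates 1, 2 and 3, and 7953, 4908 and 7518 in VprBP sh. After scaling, these were 11794, 7558 and 8479 normalized counts in Control sh against 8880, 5100 and 5763 in VprBP sh. Replicate 1 was the highest library in both groups, and the first VprBP sh library lay above 2 of the Control sh libraries. The means were 9277 ± 2228 and 6581 ± 2018 (SD, n = 3 in each group), a log2 difference of -0.50 (SE 0.22), with an adjusted p of 0.0631 by edgeR's quasi-likelihood test. Leaving out VprBP sh replicate 1 gave -0.77 with an adjusted p of 0.00479, and leaving out Control sh replicate 1 gave -0.29 with an adjusted p of 0.266. With replicates 2 and 3 of each group alone it was -0.56 (adjusted p = 1.6e-07), a comparison chosen after seeing the data. Whether MT2A was lower beyond the spread between libraries thus depended on which libraries entered the comparison.

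MT1X (ENSG00000187193.9, chr16:56682470-56684196, plus strand) was the second most abundant member per length. Its counts were 668, 758 and 1066 in Control sh against 2291, 1297 and 1994 in VprBP sh. Normalized counts were 774, 824 and 1011 in Control sh against 2558, 1348 and 1528 in VprBP sh. The groups did not overlap, as was the case for 79.5% of the genes tested, and VprBP sh replicate 1 stood well above replicates 2 and 3. The mean rose from 870 ± 125 to 1811 ± 653 (SD, n = 3 in each group), a log2 fold change of 1.06 (SE 0.22, adjusted p = 0.00171, edgeR). The size of this rise rested in part on 1 library. Without VprBP sh replicate 1 the log2 fold change was 0.72 (adjusted p = 0.000869), and with replicates 2 and 3 of both groups alone it was 0.65 (adjusted p = 2.08e-06), so the direction held while the 2-fold mark was no longer reached. The locus of MT1X overlaps a lncRNA gene on the same strand, ENSG00000259827, which was not analysed here. Of the 1821 different windows of 50 bases in MT1X transcripts, 3.73% also occur in other metallothionein genes and 18.7% in any other gene, the difference being that lncRNA.

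MT1F (ENSG00000198417.7, chr16:56657731-56660698, plus strand) had 104, 129 and 179 counts in Control sh against 204, 157 and 258 in VprBP sh. On the normalized scale these were 121, 140 and 170 in Control sh against 228, 163 and 198 in VprBP sh. The highest Control sh library lay above the lowest VprBP sh library. The means were 143 ± 24.7 and 196 ± 32.3 (SD, n = 3 in each group), and the log2 difference of 0.45 (SE 0.19) had an adjusted p of 0.0512 in the edgeR test. With replicates 2 and 3 of both groups alone the log2 difference was 0.23 (adjusted p = 0.18, edgeR). Like MT1X, MT1F lies behind MT1A in the order of the cluster.

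MT1E (ENSG00000169715.15, chr16:56625475-56627112, plus strand) had 109, 119 and 122 counts in Control sh and 0 in each of the 3 VprBP sh libraries. The Control sh libraries were close together, at 126, 129 and 116 normalized counts, with a mean of 124 ± 7.19 (SD, n = 3). Taking 3 counts per library as the floor, a mean of 2.92 normalized counts in VprBP sh, MT1E was at least 42.4-fold lower (adjusted p = 1.39e-06, edgeR). The floor covers counting error only. MT1M (ENSG00000205364.4, chr16:56632659-56633981, plus strand) had 5, 26 and 14 counts in Control sh and 0 in each VprBP sh library. Control sh replicate 1 was near the floor, so the mean of 15.8 ± 11.4 normalized counts (SD, n = 3) had a wide spread, and MT1M was at least 5.40-fold lower in VprBP sh. This bound rested on Control sh replicate 2, without which it was 3.26-fold. Without the filter on low counts, its adjusted p was 0.00132.

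The other family genes of the same stretch had 0 counts in the same libraries. MT1A (ENSG00000205362.11, chr16:56638666-56640087), which encodes a metallothionein, had 10, 15 and 23 counts in Control sh and 0 in each VprBP sh library. It was at least 5.67-fold lower, from a mean of 16.6 ± 5.11 normalized counts (adjusted p = 0.00019, edgeR). MT1L (ENSG00000260549.3, chr16:56617428-56618830), an expressed pseudogene between MT2A and MT1E, had 64, 66 and 68 counts against 0, 0 and 0, and was at least 24.0-fold lower (adjusted p = 5.01e-06, edgeR). Every window of 50 bases of MT1L also lies in an overlapping lncRNA, ENSG00000291105, so its reads cannot be assigned to MT1L alone. MT2P1, a processed pseudogene on chromosome 4, had 10, 6 and 2 counts in Control sh against 0, 5 and 1 in VprBP sh, too few to be tested. The stretch without reads in VprBP sh thus ran over all 4 metallothionein genes and pseudogenes analysed between MT2A and MT1F. Among the 15852 genes whose Control sh mean reached 10 normalized counts, 4.59% had 0 counts in every VprBP sh library.

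Sequence shared between family members can move reads from one gene to another. The share of the different 50-base windows (the read length) of a member's transcripts that occur in a transcript of another gene on the same strand was 1.24% for MT1F, 4.48% for MT2A, 7.10% for MT1E, 18.2% for MT1M and 18.7% for MT1X. No window of these genes occurred in another gene on the opposite strand. Most windows of MT1E and MT1M were thus found in no other gene. All 6 values were whole numbers for MT1E, MT1F, MT1M and MT1X, as were 2 of 6 for MT2A, the others being fractional.

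Levels can be compared between genes only per length. Per kb of merged exons, Control sh held 10150 ± 2437 normalized counts of MT2A, 504 ± 72.2 of MT1X, 118 ± 6.84 of MT1E, 77.5 ± 13.4 of MT1F and 30.9 ± 22.4 of MT1M (SD, n = 3). No neighbours in this order overlapped between libraries, the closest being MT1F, at 65.1 or more, and MT1M, at 55.3 or less. The order and the shares below rest on the annotated lengths. Merged exons take in every annotated transcript, and those of MT2A (914 bases) and MT1X (1727 bases) filled the whole gene span, introns included. Before scaling by length, MT1E lay below MT1F in Control sh, at means of 124 and 143 normalized counts. In VprBP sh the levels were 7200 ± 2208 for MT2A, 1049 ± 378 for MT1X and 106 ± 17.5 for MT1F, with MT1E and MT1M at 0. MT2A therefore made up most metallothionein RNA in both groups. Its share of the summed level per length was 95.2%, 91.9% and 91.9% in Control sh against 85.8%, 86.5% and 86.4% in VprBP sh. The share of MT1X was 3.31%, 5.30% and 5.80% in Control sh against 13.1%, 12.1% and 12.1% in VprBP sh, and the groups overlapped in neither share. Nor did they overlap in the level of 79.5% of the genes tested.

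The ratio of 2 members within a library does not depend on how the libraries are scaled. For each 100 counts of MT2A there were 6.57, 10.9 and 11.9 counts of MT1X in Control sh against 28.8, 26.4 and 26.5 in VprBP sh. The ratio was 9.80 ± 2.84 in Control sh against 27.3 ± 1.35 in VprBP sh (SD, n = 3), and the first VprBP sh library, which was high in both genes, lay with the other two. MT1F followed the same order, with 1.02, 1.86 and 2.00 counts per 100 of MT2A in Control sh against 2.57, 3.20 and 3.43 in VprBP sh, again without overlap. The levels of 79.5% of the genes tested did not overlap between the groups, and the like share for ratios was not computed. The ratio shows unequal change and not which of the genes changed. No test is given for these ratios, since an exact permutation test of 3 against 3 libraries cannot go below p = 0.1. The sum of the 5 members analysed was 12820, 8680 and 9788 normalized counts in Control sh against 11665, 6611 and 7489 in VprBP sh, so the summed metallothionein RNA of the groups overlapped.

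**Figure D2:**
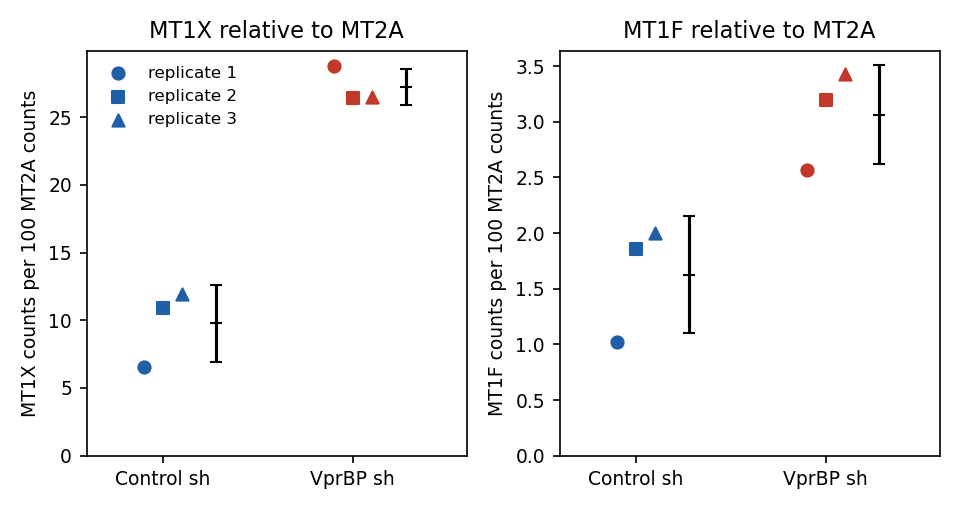
Counts of MT1X and of MT1F per 100 counts of MT2A in each library, with 1 symbol per library (circle, square and triangle for replicates 1, 2 and 3, Control sh in blue and VprBP sh in red) and the group mean ± SD as a black bar. The MT1X ratio lay at 6.57 to 11.9 in Control sh against at 26.4 to 28.8 in VprBP sh, and the MT1F ratio at 1.02 to 2.00 and at 2.57 to 3.43.

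No gene with a close likeness to MT2A was another metallothionein. Among 12816 genes that reached a mean of 100 normalized counts in either group, likeness was taken as the root mean square difference of centred log2(normalized count + 1) over the 6 libraries. The nearest were DGKE at 0.10, which encodes a diacylglycerol kinase, ZNF699 at 0.11, a zinc finger gene, AAK1 at 0.11, a kinase of endocytosis, MAP3K13 at 0.13, a kinase of the JNK pathway, and the gene ENSG00000288632 at 0.14. By the same measure MT1F stood at 0.58 from MT2A, MT1X at 0.81, MT1M at 1.85 and MT1E at 3.24.

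The genes around the cluster were not lost in VprBP sh. On the side of MT2A, OGFOD1, an oxygenase that hydroxylates a ribosomal protein, had 924 ± 77.2 normalized counts in Control sh against 1509 ± 184 in VprBP sh (log2 fold change 0.71, adjusted p = 0.000284, edgeR). BBS2, a subunit of the ciliary BBSome complex, had 720 ± 40.5 and 1371 ± 49.5 (0.93, SE 0.09, adjusted p = 8.92e-06). Both changes passed the test but not the 2-fold mark. On the side of MT1X, the nucleoporin gene NUP93 had 1955 ± 143 and 2615 ± 113 (0.42, adjusted p = 0.00126), and HERPUD1, a gene of endoplasmic reticulum stress, rose from 592 ± 26.8 to 1903 ± 30.6 (1.68, SE 0.08, adjusted p = 1.02e-07). All 4 nearest neighbours were thus higher in VprBP sh. Of 36 other genes with a start within 1 Mb of the cluster, 26 were tested. Of these 26, 8 were called higher and 1 lower, beside 24.5% and 22% of all genes tested. The median log2 fold change of the 26 was 0.69 beside 0.08 for all genes tested. CX3CL1, a chemokine gene named after its values were seen, had 0 counts in Control sh and 2880 ± 665 normalized counts in VprBP sh (at least 902-fold higher).

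**Figure D3:**
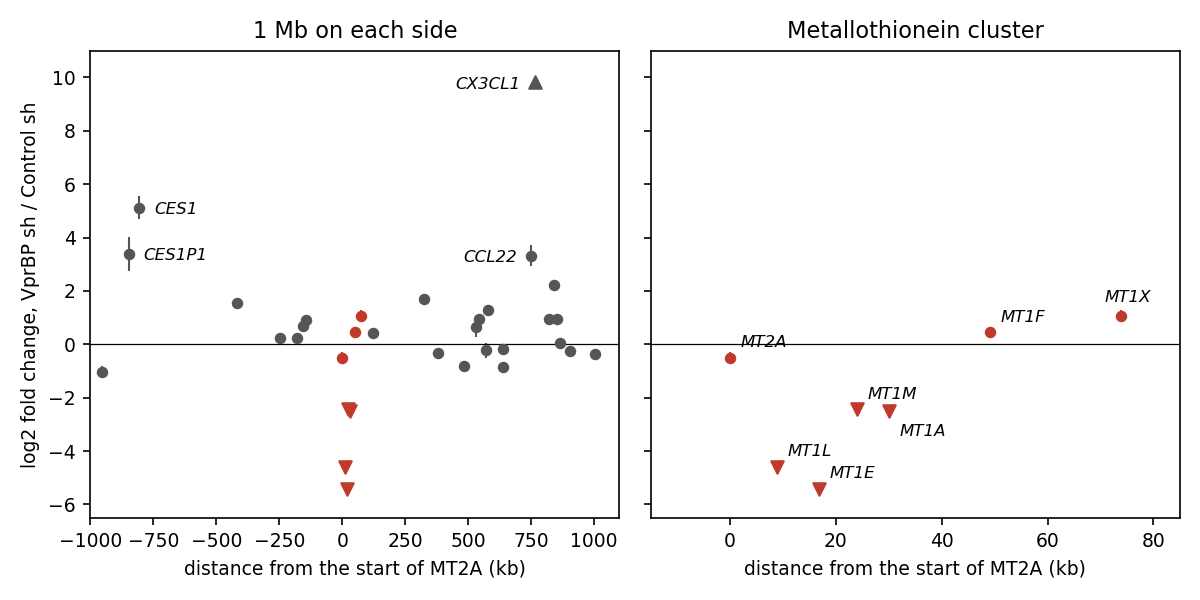
Log2 fold change of VprBP sh over Control sh against the distance of each gene's start from that of MT2A in kb, for the genes tested within 1 Mb (left) and for the metallothionein cluster (right). Red marks metallothionein genes and dark grey other genes, points carry the SE where it is larger than the symbol, and triangles are bounds against the floor of 3 counts, pointing the way in which the true value may lie further. MT1L, MT1E, MT1M and MT1A lie below zero between MT2A at -0.50 and MT1F at 0.45. MT1M, which was not tested, is shown by its bound. The neighbours labelled are those with the largest changes.

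MTF1 (ENSG00000188786.10, chromosome 1), the transcription factor that induces metallothionein genes when zinc is high, rose in VprBP sh. It had 444, 393 and 497 counts in Control sh against 1671, 1625 and 2152 in VprBP sh. The libraries of each group were close together and the groups were far apart. The mean went from 471 ± 43.7 to 1735 ± 115 normalized counts (SD, n = 3 in each group), a 3.68-fold rise (log2 fold change 1.88, SE 0.10, adjusted p = 2.00e-07, edgeR). MTF1 RNA was therefore higher in the same libraries in which MT1X was higher, MT2A did not pass the test and MT1E was not detected. RNA of MTF1 does not report the activity of its protein.

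Zinc transporters moved in both directions. Of 10 zinc exporters of the SLC30 family, 8 were tested, of which 1 was called higher and 2 lower. Over all genes tested, 24.5% were called higher and 22% lower. SLC30A1, the exporter at the cell surface and itself a target of MTF1, went from 611 ± 93.4 to 1183 ± 39.3 normalized counts, a log2 fold change of 0.95 (SE 0.12, adjusted p = 5.18e-05, edgeR), just short of the 2-fold mark. SLC30A10, known chiefly as a manganese exporter, fell from 32.7 ± 4.59 to 0 (at least 11.2-fold), and SLC30A4 fell by 1.38 on the log2 scale. SLC30A3, the exporter of synaptic vesicles, had 0 counts in Control sh but 45.2 ± 11.5 normalized counts in VprBP sh (at least 14.2-fold higher). Of 14 zinc importers of the SLC39 family, 11 were tested, of which 2 were called higher and 3 lower, beside the same shares of all genes. SLC39A14, an importer of zinc, iron and manganese, fell from 4056 ± 317 to 611 ± 141 (log2 fold change -2.73, SE 0.15). SLC39A10 fell from 1053 ± 383 to 245 ± 42.1 (-2.11, SE 0.27) and SLC39A13 by 1.06 on the log2 scale. SLC39A4, the intestinal zinc importer, rose from 39.4 ± 14.6 to 250 ± 30.6 (2.66, SE 0.26), and SLC39A11 rose from 581 ± 36.7 to 1529 ± 57.9.

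Copper and iron genes were read as well, since metallothioneins also bind copper. All 15 copper genes listed were tested, of which 5 were called higher and 1 lower, beside 24.5% and 22% of all genes tested. The copper importer SLC31A1 rose from 1622 ± 29.2 to 3727 ± 186 normalized counts (log2 fold change 1.20, SE 0.08), and SLC31A2 rose from 119 ± 32.8 to 376 ± 93.6. The copper exporter ATP7A rose from 280 ± 11.9 to 1322 ± 32.6 (2.24, SE 0.10). The other copper exporter of the list, ATP7B, named after its values were seen, had 420 ± 104 normalized counts in Control sh against 240 ± 20.8 in VprBP sh (-0.80, SE 0.18, adjusted p = 0.0023, edgeR), short of the 2-fold mark. The metalloreductase STEAP4 rose from 720 ± 73.0 to 4898 ± 292 (2.76, SE 0.10), whereas its relative STEAP2 fell from 161 ± 26.5 to 0 counts (at least 55.0-fold). Of 8 iron genes, 2 were called higher and 3 lower, beside the same shares of all genes. The ferritin chains FTL and FTH1 fell, FTL from 19735 ± 703 to 3308 ± 660 (-2.58, SE 0.14) and FTH1 from 126300 ± 7166 to 47746 ± 3383 (-1.40, SE 0.09). The iron exporter SLC40A1 rose from 51.7 ± 8.99 to 434 ± 142 (3.08, SE 0.28) and HFE, a regulator of iron uptake, from 307 ± 40.3 to 840 ± 53.0, while ACO1, the iron-sensing aconitase, fell by 1.00 on the log2 scale. Over the 48 genes of the 5 metal lists, MTF1 included, 43 were tested, of which 11 were called higher and 9 lower, shares close to the 24.5% and 22% of all genes. Their median log2 fold change was 0.22, beside 0.08 for all genes tested.

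**Figure D4:**
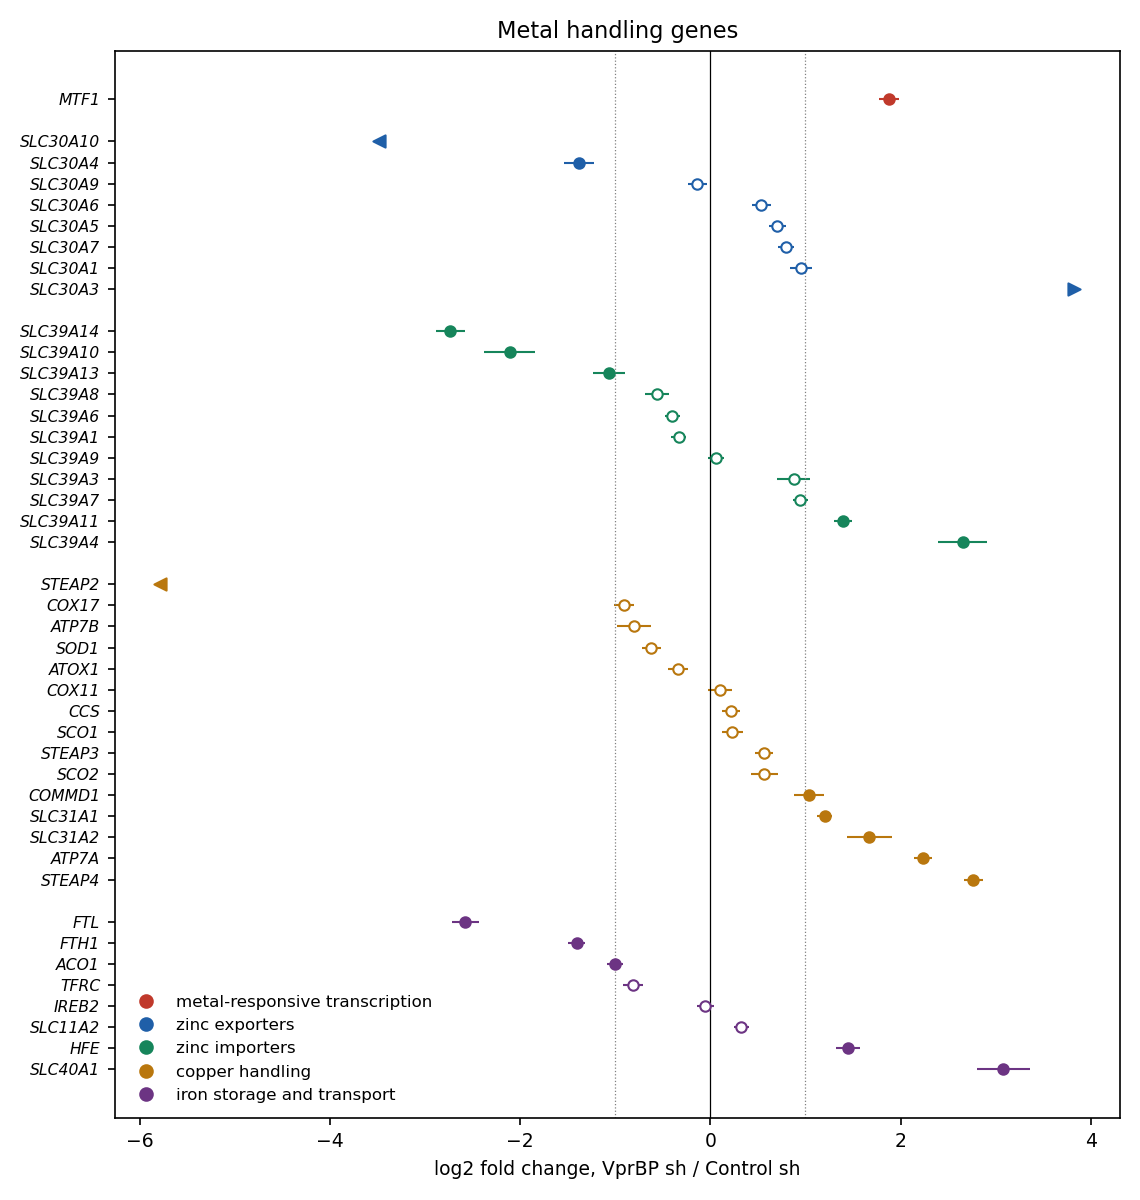
Log2 fold change of VprBP sh over Control sh with its SE for the metal-handling genes tested, grouped by role. Filled points were called and open points were not, triangles are bounds against the floor of 3 counts, and dotted lines mark a 2-fold change. MTF1 lies at 1.88, SLC30A1 at 0.95, and the ferritin genes FTL and FTH1 at -2.58 and -1.40.

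Glucocorticoid and stress genes were listed because the same signals act on metallothionein promoters. Of 13 glucocorticoid response genes, 10 were tested, of which 4 were called higher and 1 lower, and the median log2 fold change was -0.10. Over all genes these calls took 24.5% and 22% and the median was 0.08. TSC22D3, an anti-inflammatory target of the glucocorticoid receptor, rose from 744 ± 14.6 to 7343 ± 515 normalized counts (3.30, SE 0.09), while SGK1, a kinase gene induced by the same receptor, fell from 2594 ± 417 to 31.5 ± 12.4 (-6.40, SE 0.23). HSD11B2, which inactivates cortisol, rose by 2.21 and CRISPLD2 by 1.24 on the log2 scale. The receptor gene NR3C1 itself went from 1510 ± 36.1 to 997 ± 90.8 (-0.60, SE 0.09, adjusted p = 0.000229, edgeR). The list did not move in 1 direction. Of 18 metal and oxidative stress genes, all of them tested, 2 were called higher and 3 lower, with a median of -0.36. Over all genes, 24.5% were called higher and 22% lower, with a median of 0.08. HMOX1, the heme oxygenase induced by cadmium and by heme, rose from 152 ± 2.86 to 707 ± 126 (2.22, SE 0.15), and the chaperone HSPA8 rose by 1.03 on the log2 scale. The co-chaperone gene BAG3 fell from 5787 ± 230 to 1096 ± 44.1 (-2.40, SE 0.08), TXNRD1, a selenoprotein that reduces thioredoxin, fell by 1.42 and SLC7A11, the cystine importer, fell by 1.32 on the log2 scale. The genes called higher and lower in these lists had adjusted p-values from 2.33e-09 (TSC22D3) upward in the edgeR test.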

How the data were processed

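Total RNA of 6 libraries, 3 Control sh and 3 VprBP sh, was sequenced as single-end reads, aligned to hg38 with STAR and quantified per gene in Partek Flow. The authors deposited estimated counts, neither normalized nor pooled, of which 59.9% were whole numbers (tolerance 1e-06). The labels name a SMARTER kit and the methods a strand-specific KAPA kit. Values were rounded and tested with edgeR 4.0.16 in R 4.3.3 (quasi-likelihood test, upper quartile factors at quantile 0.75, filterByExpr with a minimum of 10), which left 16756 of 21494 genes. Every gene in the table sums to 10 or more. The study used Partek's Gene Specific Algorithm, for which edgeR was substituted. Genes were called at a Benjamini-Hochberg adjusted p under 0.05 and a fold change over 2. All 6 libraries entered the fit, with no replicate block. Each SE was derived as log2 fold change over the root of the F statistic. Against a group at 0, folds were taken against 3 counts per library (2.30 to 3.48 normalized counts). Exon lengths, overlaps and shared windows came from GENCODE 44, which held 21460 of the 21494 gene IDs, and promoters from RefSeq. Python 3.11.15 was used. The alternatives were edgeR's TMM, library size scaling, DESeq2 1.42.0, limma-voom (limma 3.58.1), other filters, a replicate block, glmTreat and leaving out each library, and the fit on replicates 2 and 3 was added after seeing the data.

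Members and gene lists were chosen with earlier results of these data known. Named were all metallothionein genes in the table, MTF1 and DCAF1, the 3 called genes with the largest change in each direction per list, 5 genes fixed by name (SLC30A1, SLC39A10, HMOX1, NR3C1 and SLC31A1), the 2 nearest neighbours on each side and the 5 genes most like MT2A.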

Additional observations from a re-analysis of the deposited data

How the results depend on the processing

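MT1E was called in all 14 alternatives that tested it and MTF1 in all 15 (log2 fold change 1.76 to 2.09). MT1X kept its direction in all 15, with an adjusted p under 0.05 in 14, but lay near the 2-fold mark. The number of members called was 2 and became 1 with TMM scaling (MT1X 0.96), DESeq2 (0.94), limma-voom (1.00) and glmTreat (MT1X adjusted p = 0.407), where MT1X was no longer called, and 1 with at least 10 counts in every sample, where MT1E was no longer tested. Leaving out 1 library gave 2 to 3 members called, but not always MT1X: without Control sh replicate 1 (0.97) or VprBP sh replicate 1 (0.72) it was not called, and MT1M, then tested, was called lower. MT2A ran from -0.77 to -0.28 (adjusted p under 0.05 in 7 of 15) and MT1F from 0.23 to 0.66 (in 4 of 15). With the replicate block 2 members were called and MT1X was at 1.01 (adjusted p = 0.00867), while MT2A was at -0.51 with an adjusted p of 0.0022, now under 0.05. Libraries that share a number did not deviate together (correlations of -0.065, 0.017 and -0.052 over 16756 genes), so the numbers were not taken as pairs. All genes called fell from 7778 to 4690 with at least 10 counts in every sample, since 13103 genes were then tested, and neighbours called rose from 9 to 14 without a filter on low counts, which tests more genes. The total counts of metal handling, glucocorticoid and stress genes called stayed within 1.5 times in all 15, but their split by direction moved. Stress genes went from 2 higher and 3 lower to 1 and 5 with TMM scaling and with replicates 2 and 3 alone. Glucocorticoid genes went from 4 higher and 1 lower to 3 and 2 with replicates 2 and 3 alone. Metal handling genes went from 11 higher and 9 lower to 15 and 7 under library size scaling. Over all genes tested the median log2 fold change was 0.08, which became 0.29 under library size scaling, -0.01 under TMM and -0.04 in DESeq2. Levels per kb of MT1E and MT1F moved to 166 in Control sh for MT1E and to 91.2 and 125 in Control sh and VprBP sh for MT1F with the length of the longest transcript. For genes at 0, depth limits a level below 3 counts.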
